A study of Mus musculus with 2 samples.

Results

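Genes of leukotriene and prostaglandin synthesis were followed through the leukocytes of MC38 tumors, a mouse colon cancer line grown under the skin of C57BL/6 mice. The 8 genes were chosen by their role, with earlier results of these data known. Alox5, Alox5ap, Lta4h and Ltc4s make leukotrienes, and Ptgs1, Ptgs2, Ptges and Hpgds make prostaglandins. They are 8 of the 32285 genes in the tables, and each was found by its symbol. Male C57BL/6 mice of 6 to 8 weeks carried MC38 tumors on both flanks. In the MWA group the right tumor was destroyed by microwave ablation (MWA) at about 300 mm3 and the mice received an isotype control antibody. In the MWA plus TIGIT group the same ablation was followed by an antibody that blocks TIGIT, a coinhibitory receptor of T cells and NK cells. By the sample labels the antibody was injected into the peritoneum 3 times, every 3 days from day 1 after MWA, while the methods of the study give another number of injections. CD45+ cells, that is, leukocytes, were sorted from the left tumor, which was not ablated, on day 8 after MWA. Both groups thus carried an ablated tumor on the opposite flank, and no library of unablated mice was compared here.

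There was 1 library per group, and the number of mice behind each was not given. No test between the groups was therefore possible, and the error of variation between mice is unknown. Transcripts were counted by unique molecular identifiers (UMIs), from reads of the 3′ end of each transcript. The MWA library held 10217 cell barcodes and 66152465 UMIs, and the MWA plus TIGIT library 10190 barcodes and 78751205 UMIs. After filters, 9231 and 9127 cells remained, with medians of 5449 and 6444 UMIs per cell. The libraries shared 37 barcode sequences. Levels are UMIs of a gene per 1000000 UMIs of a cell class (CPM), and all intervals are 95% intervals that cover counting error only.

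Arachidonic acid, a fatty acid freed from membranes, is the common precursor. 5-lipoxygenase (Alox5), presented with its substrate by 5-lipoxygenase activating protein (Alox5ap), makes leukotriene A4. Leukotriene A4 hydrolase (Lta4h) turns this into leukotriene B4, a strong attractant of neutrophils, whereas leukotriene C4 synthase (Ltc4s) makes the first of the cysteinyl leukotrienes. In the other branch the cyclooxygenases, the constitutive Ptgs1 and the inducible Ptgs2, make prostaglandin H2. Prostaglandin E synthase (Ptges) then gives prostaglandin E2, which is widely studied as an immunosuppressive mediator in tumors, and hematopoietic prostaglandin D synthase (Hpgds) gives prostaglandin D2.

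The promoters of 4 of these genes are shown because the levels of their transcripts set several myeloid classes apart. Each sequence runs 5′ to 3′ on the strand of the gene, from 250 bases before to 50 bases after the annotated start, and was taken from RefSeq. A promoter entry was matched for 7 of the 8 genes. Capitals mark matches, on either strand, to a C/EBP palindrome (TTGCGCAA), an E-box (CACGTG), the core of a cyclic AMP response element (TGACG) and the longer form of a purine-rich core (GAGGAAG).
Ptgs2, GRCm38.p6, chr1:150099781-150100080, plus strand: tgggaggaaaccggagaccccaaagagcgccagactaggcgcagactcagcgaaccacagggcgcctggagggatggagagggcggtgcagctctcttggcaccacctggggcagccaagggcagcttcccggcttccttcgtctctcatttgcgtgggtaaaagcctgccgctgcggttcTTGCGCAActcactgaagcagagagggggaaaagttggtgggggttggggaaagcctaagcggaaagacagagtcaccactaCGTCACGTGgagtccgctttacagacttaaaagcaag
Ltc4s, GRCm38.p6, chr11:50238483-50238782, minus strand: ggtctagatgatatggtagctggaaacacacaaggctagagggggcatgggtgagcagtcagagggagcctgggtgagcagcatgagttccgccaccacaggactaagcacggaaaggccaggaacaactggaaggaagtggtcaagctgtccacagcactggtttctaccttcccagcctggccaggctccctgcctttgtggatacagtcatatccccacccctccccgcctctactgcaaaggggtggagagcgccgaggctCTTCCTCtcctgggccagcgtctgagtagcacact
Ptgs1, GRCm38.p6, chr2:36230176-36230475, plus strand: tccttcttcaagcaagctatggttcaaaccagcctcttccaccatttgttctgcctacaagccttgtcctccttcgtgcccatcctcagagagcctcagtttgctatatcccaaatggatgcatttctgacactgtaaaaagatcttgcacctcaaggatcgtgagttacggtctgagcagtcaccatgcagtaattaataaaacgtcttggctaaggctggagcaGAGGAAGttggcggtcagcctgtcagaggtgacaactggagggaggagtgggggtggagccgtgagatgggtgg
Hpgds, GRCm38.p6, chr6:65144681-65144980, minus strand: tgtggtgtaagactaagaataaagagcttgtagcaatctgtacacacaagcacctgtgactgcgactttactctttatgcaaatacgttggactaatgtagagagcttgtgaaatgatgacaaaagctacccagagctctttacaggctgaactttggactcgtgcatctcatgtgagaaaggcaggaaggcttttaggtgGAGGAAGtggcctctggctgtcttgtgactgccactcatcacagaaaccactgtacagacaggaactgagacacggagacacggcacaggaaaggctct
The palindrome TTGCGCAA, a site that C/EBP factors can bind, lies 69 to 62 bases before the start of Ptgs2, and 0.183% of the 32851 promoters in the table hold it. The E-box CACGTG, present in 7.15% of promoters, lies 16 to 21 bases after the Ptgs2 start and overlaps a match to TGACG on the other strand, which 20.8% hold. The 7-base form GAGGAAG of a purine-rich core, of the kind PU.1 can bind, was matched in Ltc4s, Ptgs1 and Hpgds, against 13.6% of all promoters. The shorter GAGGAA was matched in all 7 promoters read, and in 28.3% of all promoters. GGGCGG was matched in 3 of the 7 and in 35.7% of all, whereas TATAAA, TGACGTCA and TGAGTCA were matched in none of the 7 and in 13.6%, 1.79% and 5.2% of all promoters. These are matches of letters and were not tested as binding sites.

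Myeloid cells were clustered without the 8 genes and without 42 other genes of the pathway, so that no class rests on them. Selenop macrophage-like cells (1229 cells in the MWA library and 1188 in the MWA plus TIGIT library) were led by Selenop, Mrc1 and Ccl8. Arg1 macrophage-like cells (850 and 943) were led by Arg1, Folr2 and Slc7a2, with Lyz1 and the monocyte genes Fn1 and F13a1 also among the leading genes. Hypoxic macrophage-like cells (717 and 708) were led by Mmp12, Ndrg1, Hmox1 and Bnip3, with heat shock genes among them. C1qa, a subunit of complement C1q that marks tissue macrophages, was at 5973 and 6604 CPM in the first class, 5842 and 6660 CPM in the second and 2682 and 3216 CPM in the third. Ly6c2 monocyte-like cells (133 and 114) were led by Hp, Ifitm6, Plac8 and Chil3, with Tppp3 and Ace also among the leading genes. They carried the classical monocyte gene Ly6c2 at 969 and 1481 CPM. A T cell cluster led by Cd8b1 with Tcf7 held it at 938 and 1327.5 CPM. Ccl24 monocyte-like cells (568 and 666) were led by Chil3, Il1b and Ccl24. They held C1qa at 1303 and 1450 CPM, against 545 and 401 CPM in Ly6c2 monocyte-like cells. In Ccl24 monocyte-like cells the C1q macrophage list summed to 12300 and 14171 CPM and the monocyte list to 6013.5 and 5916 CPM. Neutrophil-like cells (96 and 70) were led by S100a8, S100a9 and Retnlg, and had low medians of 921 and 1280 UMIs per cell. Interferon-induced and cycling macrophage-like cells and a cluster led by Mcm genes of DNA replication completed the 9 classes compared between the libraries. Markers of basophils or mast cells, which are known producers of leukotriene C4 and prostaglandin D2, were found together (at least 2 of 6 in a cell) in only 1 and 2 of all cells. A low-UMI cluster of 226 and 313 cells, led by Mcpt2, a mast cell protease, Gm26917, Gm26885, Lars2, Gm42418 and mitochondrial genes, was left unnamed. In it the list of basophil or mast cell genes summed to 0 CPM in the MWA library and 181 CPM in the MWA plus TIGIT library, where 9 of its 12 genes were found, and the C1q macrophage list to 51334 and 44923 CPM, and their part in the levels of this cluster was not tested.

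Alox5ap (chr5:149264767-149288153) was the member found throughout the myeloid cells. It was highest in Ly6c2 monocyte-like cells, at 1247 CPM (1161 to 1337) in the MWA library and 1310 CPM (1225 to 1399.5) in the MWA plus TIGIT library. Arg1 macrophage-like cells held 924 and 999 CPM, and Ccl24 monocyte-like cells 897 and 839 CPM. Selenop macrophage-like cells held 655 (640 to 671) and 616 (603 to 629) CPM, which was 0.526 (0.488 to 0.567) and 0.470 (0.439 to 0.505) times the level in Ly6c2 monocyte-like cells. This order did not hold when barcodes called as doublets were kept. The Ly6c2 monocyte-like class then held 487 and 400 cells, and the log2 ratio of the 2 classes went from -0.93 and -1.09 to 0.08 and 0.01. Markers of T cells summed to 435 and 340 CPM in the Ly6c2 monocyte-like class, against 31.1 and 22.4 CPM in Arg1 macrophage-like cells, and their part in the level was not tested. In neutrophil-like cells Alox5ap was at 724 (569 to 907) and 1163 (969 to 1385) CPM, and in the MWA plus TIGIT library this interval overlapped that of Ly6c2 monocyte-like cells. Type 1 DC-like cells of the MWA library, which carried Xcr1 and Clec9a, held 737 CPM (658 to 822), while only 5 such cells were found in the other library. A small cluster of 30 and 24 cells led by Ctsk and Acp5, genes of osteoclasts, was low, with 89.0 and 58.9 CPM, and 8 and 19 mature DC-like cells gave 12 and 2 UMIs.

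Alox5 (chr6:116410077-116461178), the enzyme that needs Alox5ap in the cell, was far more uneven. Arg1 macrophage-like cells held 36.3 (32.2 to 40.8) and 35.0 (31.5 to 38.7) CPM, and Selenop macrophage-like cells 24.7 (21.8 to 27.8) and 19.5 (17.2 to 22.0) CPM. The level in Arg1 macrophage-like cells was 1.47-fold (1.24 to 1.74) and 1.79-fold (1.53 to 2.11) that in Selenop macrophage-like cells. Hypoxic macrophage-like cells held only 6.5 (4.45 to 9.17) and 4.79 (3.19 to 6.93) CPM, or 0.263 and 0.245 times the level of Selenop macrophage-like cells, although their Alox5ap level was 1.09 and 1.18 times as high. Ccl24 monocyte-like cells, with 17 and 20 UMIs in all, held 5.14 and 3.79 CPM. So the monocyte classes that were rich in Alox5ap had little Alox5, and the interval of Ly6c2 monocyte-like cells (3.52 to 20.9 CPM from 6 UMIs, and 0.0377 to 8.30 CPM from 1 UMI) overlapped that of their neighbors in the order. In neutrophil-like cells Alox5 rested on 1 and 7 UMIs, and its intervals of 0.244 to 53.8 and 26.0 to 133 CPM overlapped those of Arg1 macrophage-like cells.

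Lta4h (chr10:93453411-93484875) had another distribution, with a higher level in lymphocytes than in macrophages. NK-like cells held 94.2 (74.9 to 117) and 94.0 (72.2 to 120) CPM and T cells 55.7 (52.2 to 59.5) and 58.7 (55.0 to 62.6) CPM. The Selenop, Arg1 and hypoxic macrophage-like classes together held 31.7 (29.4 to 34.0) and 29.6 (27.7 to 31.7) CPM. T cells thus exceeded these macrophages 1.76-fold (1.60 to 1.94) and 1.98-fold (1.80 to 2.17), and NK-like cells exceeded them 2.97-fold (2.34 to 3.74) and 3.17-fold (2.42 to 4.10). The 3 T cell clusters, led by Cd8b1 with Tcf7, by Foxp3, and by Cd8a with histone genes of cycling cells, lay close to each other at 53.1 to 62.6 CPM in the MWA library and 57.0 to 62.7 CPM in the MWA plus TIGIT library. Among macrophages the hypoxic class was lowest, with 18.7 and 22.6 CPM. Not all myeloid classes lay below T cells. Ly6c2 monocyte-like cells held 41.6 (27.1 to 60.9) and 56.6 (40.1 to 77.7) CPM, with intervals that overlapped those of T cells in both libraries. A small cluster led by Igkc held 55.8 and 88.6 CPM, from 18 and 29 UMIs. Neutrophil-like cells gave 0 and 1 UMI of 103628 and 108332 UMIs in all, with intervals of 0 to 35.6 and 0.234 to 51.4 CPM. The floor of 3 counts stood at 29.0 CPM in the first library.

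Ltc4s (chr11:50236461-50238616) marked the Arg1 macrophage-like cells. They held 191 (181 to 201) and 200.2 (192 to 209) CPM, and hypoxic macrophage-like cells 119 (110 to 129) and 131 (122 to 140.2) CPM. Selenop macrophage-like cells held 58.2 (53.8 to 62.9) and 48.0 (44.4 to 51.8) CPM. The level in Arg1 macrophage-like cells was 3.28-fold (2.99 to 3.60) and 4.17-fold (3.82 to 4.56) that in Selenop macrophage-like cells, and the intervals of the 3 classes were apart in both libraries. Ccl24 monocyte-like cells held 19.1 and 14.4 CPM, and Ly6c2 monocyte-like cells gave only 4 and 1 UMIs, at 6.39 and 1.49 CPM. Hypoxic macrophage-like cells were therefore rich in Ltc4s and poor in Alox5, whereas in Arg1 macrophage-like cells both were at or near their highest level.

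**Figure D1:**
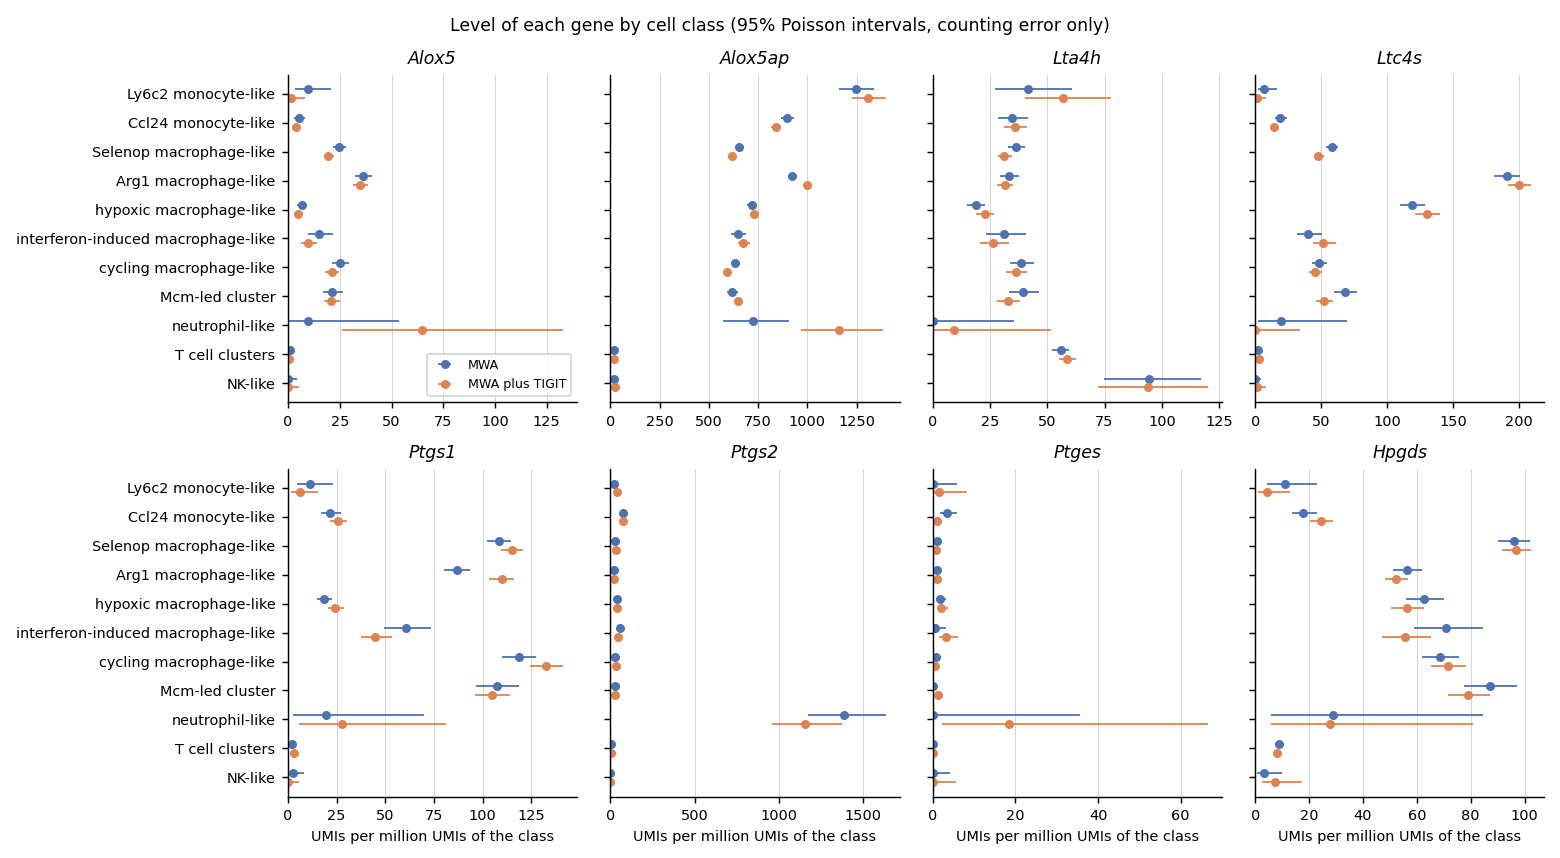
Level of each of the 8 genes in 11 cell classes, in CPM on linear axes that differ between panels. Points are the 2 libraries and bars 95% Poisson intervals of counting error. Ptgs2 stood out in neutrophil-like cells at 1390 and 1154 CPM, Ltc4s in Arg1 macrophage-like cells at 191 and 200.2 CPM, and Lta4h in NK-like cells at 94.2 and 94.0 CPM.

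Ptgs1 (chr2:36230426-36252272), the constitutive cyclooxygenase, was high in the macrophage classes other than the hypoxic class. Selenop macrophage-like cells held 108 (102 to 115) and 115 (109 to 121) CPM, Arg1 macrophage-like cells 86.5 (80.1 to 93.4) and 110 (103 to 116) CPM, and cycling macrophage-like cells 118 (110 to 127) and 133 (124 to 142) CPM. In hypoxic macrophage-like cells it was at 18.5 (14.9 to 22.7) and 24.3 (20.5 to 28.7) CPM, which was 0.171 (0.136 to 0.211) and 0.211 (0.177 to 0.251) times the Selenop macrophage-like level. Interferon-induced macrophage-like cells lay between, at 60.5 and 44.8 CPM. The unnamed low-UMI cluster held Ptgs1 at 130 (94.5 to 173) and 148 (116 to 187) CPM, with intervals that overlapped those of the cycling class. Ly6c2 monocyte-like cells gave 7 and 4 UMIs, or 11.2 (4.50 to 23.1) and 5.96 (1.62 to 15.3) CPM, and Ccl24 monocyte-like cells 21.8 and 25.8 CPM. Selenop macrophage-like cells exceeded Ly6c2 monocyte-like cells 9.68-fold (4.68 to 24.1) and 19.3-fold (7.52 to 70.9). With doublet barcodes kept, in the larger monocyte class described above, these log2 ratios fell from 3.28 and 4.27 to 1.14 and 0.76.

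Ptgs2 (chr1:150100031-150108227), the inducible cyclooxygenase, was the gene of the neutrophil-like cells. They held 1390 CPM (1172 to 1636) from 144 UMIs and 1154 CPM (960.5 to 1375) from 125 UMIs. Among the 9 classes the next, Ccl24 monocyte-like cells, held 73.8 (64.8 to 83.7) and 75.1 (67.9 to 82.8) CPM. The low-UMI cluster, outside the 9 classes, held 83.5 and 39.6 CPM, from 29 and 19 UMIs. Neutrophil-like cells exceeded the Ccl24 monocyte-like class 18.8-fold (15.2 to 23.2) and 15.4-fold (12.5 to 18.8). Against the Selenop, Arg1 and hypoxic macrophage-like classes together, at 29.3 (27.2 to 31.6) and 30.8 (28.9 to 32.9) CPM, they were 47.4-fold (39.3 to 56.7) and 37.4-fold (30.8 to 45.1) higher. When cells above 5000 UMIs were left out, no cluster took the Selenop or Arg1 name, and their shallow cells could lie under other names. The log2 ratio, 5.57 and 5.23 against the 3 classes, was then 4.65 and 3.71. It was taken against 157 and 104 cells under the hypoxic macrophage-like name. The neutrophil-like class of the MWA library held more cells than before, so both sides of this ratio differ from the reported ones. Among the macrophage classes the Arg1 class was lowest, at 22.0 (18.8 to 25.6) and 21.0 (18.3 to 23.9) CPM, and the interferon-induced class highest, at 55.9 (45.3 to 68.2) and 43.0 (35.6 to 51.5) CPM. The intervals of the interferon-induced and hypoxic classes overlapped. So did those of the Arg1 class and the Mcm-led cluster in both libraries. In the MWA library those of the Arg1 and cycling classes overlapped as well. Ccl24 monocyte-like cells, which also carried Il1b among their leading genes, exceeded Ly6c2 monocyte-like cells 3.08-fold (1.83 to 5.59) and 1.87-fold (1.26 to 2.87).

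Ptges (chr2:30889471-30929863), the prostaglandin E synthase that is induced together with Ptgs2, was close to absent from these leukocytes. All kept cells of the MWA library gave 47 UMIs and those of the MWA plus TIGIT library 64 UMIs. The Selenop, Arg1 and hypoxic macrophage-like classes together held 1.06 (0.686 to 1.56) and 1.03 (0.702 to 1.47) CPM, and no Ptges UMI was found in the 96 neutrophil-like cells of the MWA library. The interval there was 0 to 35.6 CPM. In the other library the neutrophil-like cells gave 2 UMIs, at 18.5 CPM (2.24 to 66.7). Their Ptges level could therefore not be judged at this depth. Among the macrophage classes the interferon-induced class gave 1 and 9 UMIs, at 0.576 (0.0146 to 3.21) and 3.25 (1.49 to 6.18) CPM. The Ctsk-led cluster gave 3 and 5 UMIs from 30 and 24 cells, at 6.21 (1.28 to 18.1) and 10.5 (3.42 to 24.6) CPM. A list of 8 tumor cell and fibroblast genes summed to 91.1 and 396 CPM in that cluster, against at most 20.2 CPM in any other class, and its part in the Ptges level was not tested. CD45- cells were not sorted for these libraries.

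Hpgds (chr6:65117293-65144908) was highest, among the 9 classes, in Selenop macrophage-like cells, at 96.0 (90.3 to 102) and 96.9 (91.7 to 102) CPM. The Mcm-led cluster followed, at 87.1 (77.7 to 97.3) and 79.1 (71.6 to 87.2) CPM, with an interval that overlapped in the MWA library. Cycling macrophage-like cells held 68.5 and 71.5 CPM, and interferon-induced macrophage-like cells 70.9 and 55.7 CPM. The low-UMI cluster held 100.8 (70.2 to 140.1) and 108 (81.0 to 142) CPM, which did not lie apart from the Selenop macrophage-like level. Arg1 macrophage-like cells held 56.4 (51.2 to 61.9) and 52.3 (48.0 to 56.8) CPM, or 0.587 (0.524 to 0.657) and 0.540 (0.488 to 0.596) times as much. Hypoxic macrophage-like cells, at 62.8 (56.0 to 70.2) and 56.3 (50.4 to 62.7) CPM, did not lie apart from the Arg1 class, with ratios of 1.11 (0.959 to 1.29) and 1.08 (0.937 to 1.24). The hypoxic class, poor in Ptgs1, thus kept Hpgds at 0.654 and 0.581 times the Selenop macrophage-like level. Both monocyte-like classes were low. Ccl24 monocyte-like cells held 17.8 and 24.5 CPM, and Ly6c2 monocyte-like cells 11.2 and 4.47 CPM, from 7 and 3 UMIs.

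The share of each transcript that a class supplied depends on its level and on the size of the class. Arg1 macrophage-like cells gave 42.5% (40.9 to 44.2) and 48.0% (46.5 to 49.4) of all Ltc4s UMIs of a library, while they held 13.4% and 15.5% of all UMIs. Selenop macrophage-like cells gave 36.0% and 36.4% of Hpgds UMIs and 35.8% and 32.9% of Ptgs1 UMIs. Neutrophil-like cells, 96 of 9231 and 70 of 9127 cells, gave 9.49% (8.06 to 11.1) and 6.23% (5.21 to 7.38) of Ptgs2 UMIs. Most Ptgs2 transcripts therefore came from the larger macrophage and monocyte classes, with 21.3% and 23.9% from Selenop macrophage-like and 16.1% and 19.7% from Ccl24 monocyte-like cells. T cells supplied 38.6% and 35.0% of Lta4h UMIs and at most 4.90% of those of any other member.

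**Figure D2:**
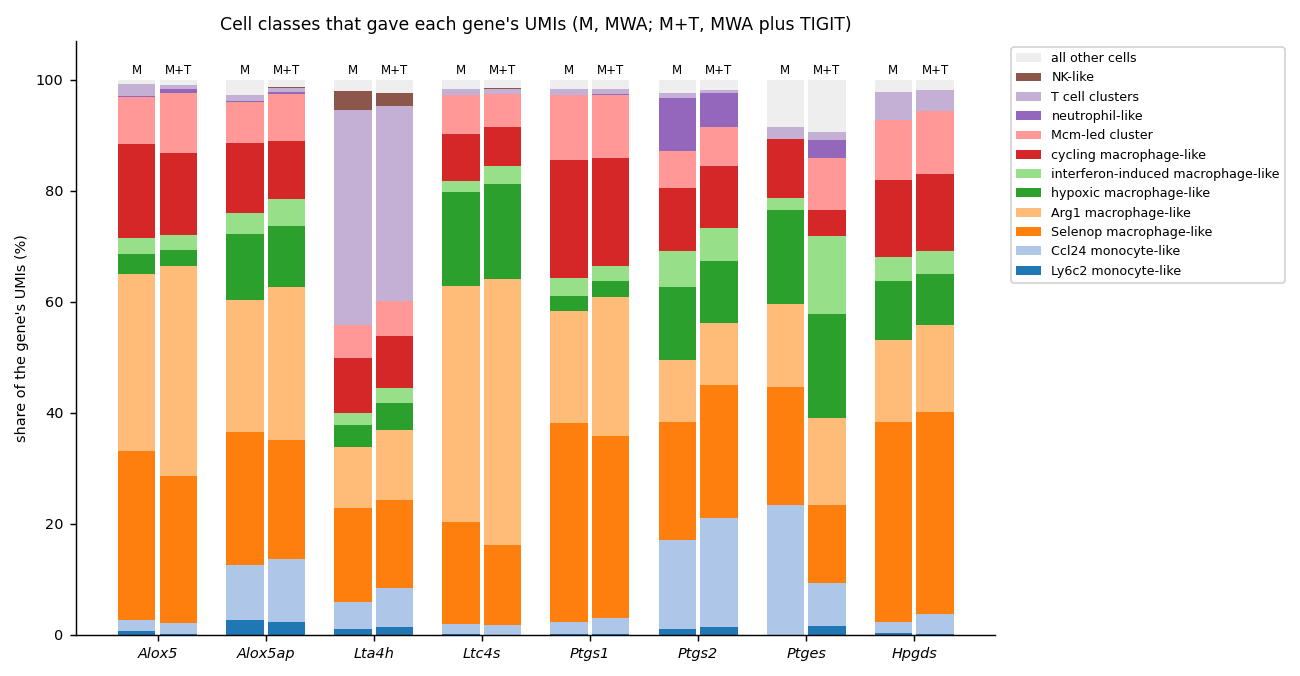
Share of each gene's UMIs, in percent of all its UMIs in kept cells, that came from each cell class, with 1 bar per library. T cell clusters gave 38.6% and 35.0% of Lta4h UMIs, Arg1 macrophage-like cells 42.5% and 48.0% of Ltc4s UMIs, and neutrophil-like cells 9.49% and 6.23% of Ptgs2 UMIs. The Ptges bars rest on 47 and 64 UMIs.

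RNA from broken macrophages can be captured in droplets of other cells, so the level in T cells was set against that of macrophage genes. T cells held C1qa at 2.24% (2.14 to 2.35) and 2.01% (1.92 to 2.10) of the level in the Selenop, Arg1 and hypoxic macrophage-like classes. The median over 12 genes of the C1q macrophage list was 2.73% and 2.26%, with ranges of 1.76% to 64.9% and 1.59% to 74.5%. Alox5ap in T cells stood at 2.49% and 2.30% of its macrophage level, Ltc4s at 2.14% and 2.33%, Ptgs1 at 2.604% and 3.02%, and Ptgs2 at 2.51% and 2.03%. These 4 genes lay near the median of the macrophage list, and whether their UMIs in T cells are background was not tested. Alox5, with 19 and 7 UMIs in T cells, stood at 4.72% (2.82 to 7.44) and 1.98% (0.792 to 4.10). Hpgds was at 11.5% (9.65 to 13.7) and 11.3% (9.42 to 13.5), above that median in both libraries but within the range of the list, and Lta4h at 176% (160 to 194) and 198% (180 to 217). Hpgds UMIs were spread over the T cell clusters, with 9.42 and 8.67 CPM in the Cd8b1 and Tcf7 cluster, 13.5 and 9.61 CPM in the Foxp3 cluster and 4.47 and 6.05 CPM in the cycling Cd8a cluster. After thinning each cell to 1000 UMIs, 0.907% and 0.727% of T cells had a Hpgds UMI, against 10.3% and 9.51% of Selenop macrophage-like cells.

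**Figure D3:**
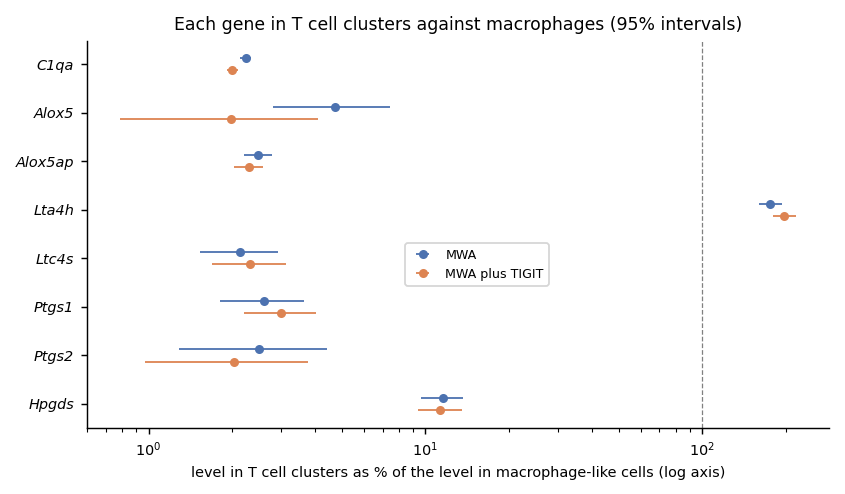
Level of C1qa and of 7 members in T cell clusters, as a percent of the level in the Selenop, Arg1 and hypoxic macrophage-like classes, on a log axis with 95% intervals. Alox5ap, Ltc4s, Ptgs1 and Ptgs2 lay between 2.03% and 3.02%, near C1qa at 2.24% and 2.01%. Hpgds lay at 11.5% and 11.3% and Lta4h above 100%, at the right of the dashed line.

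The genes differed in how they were spread over the cells of a class. In Arg1 macrophage-like cells, 98.5% and 99.3% of cells had an Alox5ap UMI, 52.0% and 54.2% an Ltc4s UMI and 23.4% and 28.6% an Alox5 UMI. Cells with at least 5 Ltc4s UMIs made up 10.6% and 16.4% of this class, single cells reached 27 and 30 UMIs, and the 85 and 94 cells with most UMIs, 10% of the class, held 54.7% and 51.9% of them. For Alox5ap that share was 22.4% and 20.8%. Ptgs2 in Selenop macrophage-like cells was found in 12.4% and 13.8% of cells, single cells reached 11 and 26 UMIs, and 12 and 25 cells had at least 5 UMIs. In neutrophil-like cells 51.0% and 51.4% had a Ptgs2 UMI at their much lower depth. Thinned to 1000 UMIs, 43.9% (28.5 to 60.3) and 42.2% (27.7 to 57.9) of neutrophil-like cells had a Ptgs2 UMI, against 2.69% and 3.37% of Selenop macrophage-like and 5.33% and 5.86% of Ccl24 monocyte-like cells. Thinning left out 55 and 25 neutrophil-like cells that were shallower. At that depth 0.0756% and 0.0269% of T cells had a Ptgs2 UMI.

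Genes whose products act together were also looked for in the same cells. Thinned to 1000 UMIs, 36 of 2786 and 33 of 2837 macrophage-like cells, that is, 1.29% (0.907 to 1.78) and 1.16% (0.802 to 1.63), had UMIs of both Alox5 and Alox5ap. Of the macrophage-like cells with an Alox5 UMI, 55.4% and 62.3% also had an Alox5ap UMI, beside 49.98% and 50.2% of those without one. No cell with UMIs of both Ptgs2 and Ptges was found in any of the 9 classes at that depth. Among the macrophage-like cells 73 and 76 had a Ptgs2 UMI and only 3 and 3 a Ptges UMI, so their joint presence could not be judged at this depth. Ptgs2 and Alox5ap were found together in 8 of 41 and 14 of 45 neutrophil-like cells, or 19.5% (8.82 to 34.9) and 31.1% (18.2 to 46.6). Alox5ap was found in 44.4% and 73.7% of those with a Ptgs2 UMI and in 43.5% and 46.2% of those without. Genes of the C1q macrophage list stood in neutrophil-like cells at medians of 13.4% and 15.8% of their macrophage level, and the part of such background in these shares was not tested.

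The addition of anti-TIGIT was then compared with MWA alone, class by class. A gene counted as different when its ratio was at least 1.5 in either direction, after a filter on low values that asked for 10 CPM in either library and a sum of 20 UMIs over the pair. In Selenop macrophage-like cells 7 of the 8 members passed this filter and 0 differed, where 0.862% of all filtered genes did. The same count was 0 of 7 in Arg1 macrophage-like cells (1.53% of all filtered genes), 0 of 6 in hypoxic macrophage-like cells (2.9%) and 0 of 7 in cycling macrophage-like cells (1.8%). In the Mcm-led cluster it was 0 of 7 (3.68%) and in Ccl24 monocyte-like cells 0 of 6 (4.23%). In interferon-induced macrophage-like cells 1 of 7 differed (9.01%), in Ly6c2 monocyte-like cells 1 of 3 (19.9%) and in neutrophil-like cells 1 of 2 (32.5%). The 3 differences thus fell in the 3 classes with the fewest UMIs of the 9, where the share of all filtered genes past the ratio was also highest.

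In the large macrophage classes the ratios were narrow. Alox5ap stood at a log2 ratio (MWA plus TIGIT over MWA) of -0.09 (-0.13 to -0.04) in Selenop and 0.11 (0.07 to 0.16) in Arg1 macrophage-like cells. Ltc4s stood at -0.28 (-0.44 to -0.12) in the former and 0.07 (-0.03 to 0.16) in the latter. Alox5 was at -0.34 (-0.59 to -0.09) in Selenop macrophage-like cells, where its level was 24.7 and 19.5 CPM. Ptgs1 was at 0.34 (0.20 to 0.48) in Arg1 macrophage-like cells, with 86.5 and 110 CPM, and at 0.09 (-0.02 to 0.20) in Selenop macrophage-like cells. Ptgs2 was at 0.27 (0.06 to 0.48) in Selenop macrophage-like cells and at -0.07 (-0.36 to 0.23) in Arg1 macrophage-like cells. Hpgds was at 0.01 (-0.11 to 0.13) and -0.11 (-0.29 to 0.08). The median ratio of the filtered members was -0.09 in Selenop and -0.05 in Arg1 macrophage-like cells, beside medians of 0.04 and 0.06 over all filtered genes. Intervals that leave out 0 here cover counting error only, and the spread between libraries of 1 group was not measured.

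Within the 9 classes, the 3 members that passed the ratio were Alox5ap, Alox5 and Ptgs2. Alox5ap in neutrophil-like cells was at 724 CPM from 75 UMIs and 1163 CPM from 126 UMIs, a log2 ratio of 0.68 (0.26 to 1.12). In the same class C1qa went from 540 to 997 CPM, the C1q macrophage list from 4410 to 5843 CPM and the neutrophil list from 156840 to 203495 CPM, and their part in the ratio was not tested. Ptgs2 in these cells was at -0.27 (-0.63 to 0.09). Alox5 in interferon-induced macrophage-like cells was at 15.0 and 9.76 CPM, from 26 and 27 UMIs, a log2 ratio of -0.62 (-1.45 to 0.22), and it passed the filter through the MWA library alone. Ptgs2 in Ly6c2 monocyte-like cells was at 24.0 and 40.2 CPM, from 15 and 27 UMIs, a log2 ratio of 0.75 (-0.21 to 1.76). The last 2 intervals include 0, so no difference was detectable at this depth. Outside the 9 classes, Lta4h in the Igkc-led cluster was at 55.8 and 88.6 CPM from 18 and 29 UMIs. In the Ctsk-led cluster Alox5ap gave 43 and 28 UMIs and Lta4h 9 and 16 UMIs. The ratios of all 3 were past 1.5-fold, with intervals that include 0. Ptgs2 in the low-UMI cluster was at 83.5 (55.9 to 120) and 39.6 (23.9 to 61.9) CPM, from 29 and 19 UMIs. Its log2 ratio was -1.07 (-1.99 to -0.19), with an interval of counting error that leaves out 0. The share of all filtered genes past the ratio was not determined outside the 9 classes.

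**Figure D4:**
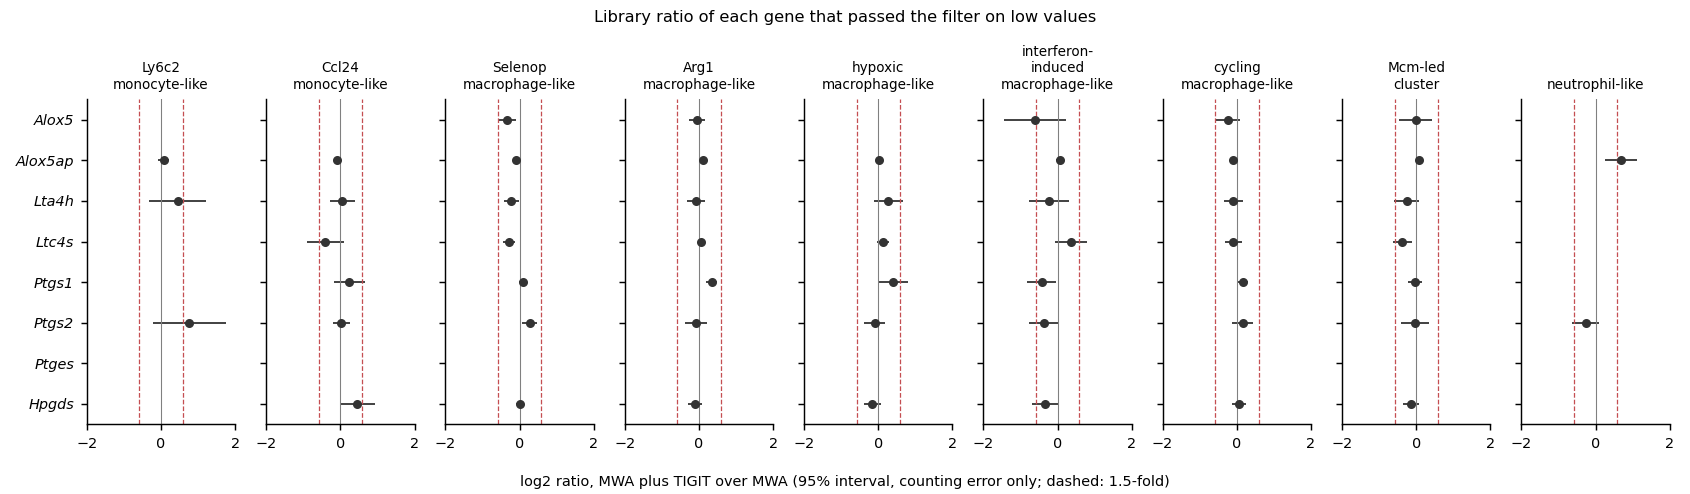
The log2 ratio of MWA plus TIGIT over MWA for each member that passed the filter on low values, in 9 cell classes, with 95% intervals of counting error and dashed lines at 1.5-fold. Points lay between the dashed lines in the Ccl24 monocyte-like, Selenop, Arg1, hypoxic and cycling macrophage-like classes and the Mcm-led cluster. Alox5ap lay beyond them in neutrophil-like cells (0.68), Ptgs2 in Ly6c2 monocyte-like (0.75) and Alox5 in interferon-induced macrophage-like cells (-0.62).

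A list of 42 further genes of the pathway was read in the same classes. In Selenop macrophage-like cells 17 of them passed the filter and 0 differed between the libraries (0.862% of all filtered genes), and in Arg1 macrophage-like cells 1 of 17 (1.53%). In hypoxic and cycling macrophage-like cells 0 of 16 differed (2.9% and 1.8%), in Ccl24 monocyte-like cells 1 of 17 (4.23%) and in the Mcm-led cluster 1 of 18 (3.68%). In interferon-induced macrophage-like cells it was 3 of 17 (9.01%), in Ly6c2 monocyte-like cells 2 of 15 (19.9%) and in neutrophil-like cells 1 of 2 (32.5%).

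Of the genes of this list that differed, 4 reached 10 CPM in both libraries in the class concerned. Cyp4f18, an enzyme that breaks down leukotriene B4, was at 984 and 591 CPM in neutrophil-like cells (-0.74, -1.21 to -0.27). Ptger4, a receptor of prostaglandin E2, was at 50.7 and 32.9 CPM in interferon-induced macrophage-like cells (-0.62, -1.06 to -0.19). In Ly6c2 monocyte-like cells Dpep2, a dipeptidase that converts leukotriene D4 to E4, was at 24.0 and 41.7 CPM and Abcc4, an exporter of prostaglandins, at 24.0 and 13.4 CPM, both with intervals that include 0. The others reached 10 CPM in the MWA plus TIGIT library alone, so the filter itself favored a higher value there and their counts are a description. They were Ptgr1, which inactivates leukotriene B4, in Arg1 (8.94 and 14.9 CPM) and interferon-induced macrophage-like cells (5.76 and 10.1 CPM), and Ptgr2 in the latter (8.65 and 15.5 CPM). Cbr1, a carbonyl reductase, in Ccl24 monocyte-like cells (5.75 and 10.0 CPM) and Abcc4 in the Mcm-led cluster (7.26 and 11.6 CPM) were of the same kind.

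Over 12 classes, 5 genes of the list led by at least 1.5-fold in the same class of both libraries. Cyp4f18 was led by neutrophil-like cells, with 984 and 591 CPM against 188 and 226 CPM in Ccl24 monocyte-like cells, so that the class with most Ptgs2 was also the class with most of this leukotriene B4 hydroxylase. Hpgd, which breaks down prostaglandin E2, was led by Ly6c2 monocyte-like cells, with 46.3 and 37.3 CPM against 11.2 and 15.7 CPM in Ccl24 monocyte-like cells. Ptgir, the prostacyclin receptor, was led by the same class, with 11.2 and 11.9 CPM from only 7 and 8 UMIs. Tbxa2r, the thromboxane receptor, was led by T cells, with 7.05 and 7.64 CPM. Slco2a1, a prostaglandin transporter, gave only 5 and 6 UMIs in T cells, at 0.307 and 0.376 CPM.

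For each member with enough UMIs, the genes with the most similar levels over 12 classes of both libraries (24 points) were listed, which describes the classes and is not a test. The points share the depth and composition of their library. Ptgs1 was most like Mrc1 (Pearson r 0.98), Olfml3 (0.97) and Pald1 (0.96), and Hpgds most like Fcrls, Cd81 and C1qc (0.93 each). Ptgs2 was most like Ccrl2 (0.98), Slc7a11 (0.96), Ptafr (0.96) and Il1a (0.96). Ltc4s was most like Lyz1 (0.93), Fblim1 (0.89) and Slc7a2 (0.88), and Alox5ap most like Spi1 (0.98), which encodes PU.1, and Atf3 (0.97). Alox5 was most like Itsn1 and Trf (0.86 each), and Lta4h most like Cetn2 (0.94) and Dnajc1 (0.93). Among the members themselves, Ptgs1 and Hpgds were closest (r 0.86), followed by Alox5 and Ptgs1 (0.82), while Lta4h was negatively related to Alox5ap (-0.56) and Ptgs2 (-0.55).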

How the data were processed

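CD45+ cells of 1 tumor sample per group were profiled with 10x Genomics 3′ libraries. The authors deposited UMI counts per gene and barcode, aligned to mm10 with Cell Ranger. The submitters' processing notes name version 6.1.1, whereas the file header names 4.0.0. Barcodes with fewer than 200 genes or over 10% mitochondrial UMIs were removed, as were doublets called by simulation on the principle of DoubletFinder (0.8% per 1000 barcodes). A limit of 5000 UMIs, which the methods of the study can be read to set, was tried as an alternative. Cells were clustered with Seurat 5.3.0 in R 4.3.3 (2000 variable genes, 3000 integration features, 40 components, resolution 0.1, and 0.5 for myeloid cells), and classes were named after their leading genes and markers were seen. In the alternatives each cluster took the name that most of its cells had here.

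UMIs were summed per class and library and divided by all UMIs of the class. Levels have exact Poisson intervals, shares exact binomial (Clopper-Pearson) intervals and ratios exact conditional binomial intervals, all at 95% and for counting error only. The floor is 3 counts. Shares of cells were compared after each cell was thinned to 1000 UMIs. Likeness between genes is Pearson's r of log2(CPM + 10). The ratio intervals were tried on simulated Poisson counts, the error that they assume, so variation between mice or libraries was not covered. The doublet calls were tried on doublets made by adding pairs of barcodes. Members, gene lists and classes were chosen with earlier results of these data known. All 8 members were named, and of the pathway list the genes past 1.5-fold between libraries or led by 1 class. Alternatives were TMM factors (edgeR 4.0.16), a floor of 5 CPM, doublets kept, a mitochondrial limit of 5%, resolution 1.0, clustering with the pathway genes kept, and cells picked by their own markers. Other steps used Python 3.11.15, numpy 2.4.6, scipy 1.17.1, pandas 2.3.3 and matplotlib 3.10.9.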

Additional observations from a re-analysis of the deposited data

How the results depend on the processing

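With doublet barcodes kept, the log2 ratio of Alox5ap in Selenop macrophage-like over Ly6c2 monocyte-like cells turned to 0.0768 in the MWA and 0.0105 in the MWA plus TIGIT library, and that of Ptgs1 moved to 1.14 and 0.76. The Ly6c2 monocyte-like class then held 487 and 400 cells in place of 133 and 114. The same Ptgs1 ratio was 4.85 in the MWA library with a mitochondrial limit of 5%, and in the MWA plus TIGIT library 3.22 at resolution 1.0 and 3.42 with members and pathway genes kept in the clustering. With cells above 5000 UMIs left out, no cluster took the Selenop, Arg1, Ly6c2 or Mcm-led name. None took the type 1 DC-like, mature DC-like, Igkc-led or Ctsk-led name either. Ly6c2 monocyte-like cells had a median of 4620 UMIs in the MWA library, so many passed the limit under other names. The low-UMI cluster then held 503 and 389 cells in place of 226 and 313. The neutrophil-like class of the MWA library also held more cells than before, so it took in cells that were outside it here. Of the 3 macrophage-like classes the hypoxic name alone was kept, by 157 and 104 cells. Against these, the log2 ratio of Ptgs2 in neutrophil-like cells was 4.65 and 3.71, and that of Lta4h in T cells of the MWA plus TIGIT library 1.74, so these are other comparisons than the reported ones. This limit moved 31 results and left 8 within their intervals. A floor of 5 CPM in place of 10 CPM moved 6 results and left 3 the same. With cells picked by their own markers 3 results moved and 13 stayed the same, and with TMM factors 2 moved and 57 stayed the same. The cause of the other changes was not tested. No paired analysis was possible because each group has 1 library. Depth limits the neutrophil-like, Ly6c2 monocyte-like and dendritic classes most, where several members rest on fewer than 10 UMIs.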
